A study of Mus musculus with 12 samples.

Results

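Neutrophil transcripts were followed in mouse hearts through 10 genes that mark this cell type: S100a8, S100a9, Csf3r, Clec4d, Clec4e, Trem1, Cxcr2, Lcn2, Mmp8 and Retnlg. The members were taken by symbol, as a list of known neutrophil markers, from a table with 33615 gene symbols, of which 25622 had counts, and all 10 were found. The list was chosen with earlier results of these data known. Whole-heart RNA from 12 libraries was compared in 3 groups of 4. The I/R + ML264 group had 2 h of reperfusion that followed 30 min of ischemia, with ML264, a small molecule used to inhibit the transcription factor KLF5. The I/R group had the same operation without ML264, and the Sham group had a sham operation, also labelled 2 h. The labels give no strain, genotype, age, sex, dose or route, and name no vehicle for the I/R group. They do not say that the libraries are separate animals, and p-values measure only the spread among libraries, which may be technical.

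Neutrophils are short-lived white cells of the blood and bone marrow that enter injured myocardium early after blood flow returns. They are drawn by chemokines that bind CXCR2, slow on selectins of the vessel wall, hold fast through integrin ligands such as ICAM-1 and carry granules of proteases and antimicrobial proteins. Their output and survival depend on G-CSF, which acts through the receptor encoded by Csf3r. Several members are also made by monocytes and macrophages (Clec4d, Clec4e, Trem1) or by stressed tissue cells (Lcn2), so no single member defines the cell.

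The members were rare transcripts at this depth. Libraries held 22.26 to 29.93 M (mega) estimated counts, of which mitochondrially encoded transcripts took 35.24% to 41.13%, and 3 counts stood for 0.1002 to 0.1348 CPM (counts per 1 M counts of a library). All 10 members together drew 172 to 799 counts per library in I/R + ML264, 290 to 727 in I/R and 162 to 231 in Sham. Some other neutrophil markers were near 0. Ly6g, which encodes the surface antigen used to stain mouse neutrophils, had 5 counts in all of I/R + ML264, 2 in I/R and 0 in Sham. Elane, which encodes a granule protease made in immature neutrophils, had no count in I/R or Sham, and Prtn3 and Ctsg had none in any library. Other granule genes had more: Mpo had 94 counts in I/R + ML264, 95 in I/R and 79 in Sham, and Mmp9 had 58, 81 and 10. In whole-tissue RNA, fewer cells of a type and less RNA per cell cannot be told apart.

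On a scale that corrects for transcript length (TPM, a share of all transcripts scaled to 1 M), the receptors Csf3r and Cxcr2 had the highest mean levels of the 10 in every group. In I/R + ML264 the mean level was 2.99 TPM for Cxcr2 and 2.40 TPM for Csf3r, followed by 1.78 TPM for Lcn2, and Trem1 was lowest at 0.200 TPM. In I/R it was 3.02 TPM for Csf3r and 2.15 TPM for Cxcr2, followed by 1.61 TPM for Clec4e, and Trem1 was again lowest at 0.208 TPM. In Sham, Cxcr2 stood first at 1.61 TPM, followed by Csf3r at 0.678 TPM, Lcn2 at 0.387 TPM and Clec4e at 0.355 TPM. In Sham the Cxcr2 libraries, at 1.39 to 1.86 TPM, lay above the Csf3r libraries, at 0.330 to 0.950 TPM. Every other pair of neighbours in the order of mean levels overlapped in its libraries, in each of the 3 groups. The other 6 members averaged under 0.1 TPM in Sham.

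The effect of the injury was read from I/R against Sham. All 3 of the called genes encode surface receptors that sense damage or microbes and amplify inflammatory signalling: Clec4d, Clec4e and Trem1 rose in I/R. Clec4d (chr6:123262111-123275265, plus strand) encodes MCL and Clec4e (chr6:123281789-123289870, minus strand) encodes Mincle, C-type lectins that bind mycobacterial glycolipid and signal through the Fc receptor gamma chain. The genes are neighbours on chromosome 6. Trem1 (chr17:48232768-48246924, plus strand) encodes a receptor that signals through DAP12. Coordinates are of GRCm38 (GENCODE M21), and none of the 10 members shares exon bases with another gene.

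Clec4d had 17, 28, 25 and 28 counts in I/R libraries 1 to 4, against 0, 5, 0 and 0 in Sham. The 2 groups did not overlap, and 3 of the 4 Sham libraries were at 0. The mean level was 0.944 ± 0.218 CPM in I/R and 0.0453 ± 0.0905 CPM in Sham (SD, n = 4 each). The depth-scaled ratio of the summed counts was 20.1 (95% exact interval 8.32 to 63.2, counting error only), and the log2 fold change was 4.21 ± 1.01 (SE) with an adjusted p of 0.0210 in edgeR's quasi-likelihood test. Both rest on Sham library 2, which held all 5 Sham counts. Without it the fitted log2 fold change was 7.65, a value against libraries at 0 that depends on the prior count and is no bound, and the gene was still called.

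Clec4e was the most evenly measured of the called genes, with counts in every library. Its level was 0.952, 1.42, 2.21 and 2.36 CPM in I/R libraries 1 to 4, against 0.769, 0.254, 0.417 and 0.493 CPM in Sham. The lowest I/R library lay above the highest Sham library, with I/R library 1 nearest to it. The ratio of depth-scaled counts was 3.69 (interval 2.68 to 5.15), and the log2 fold change was 1.85 ± 0.43 with an adjusted p of 0.0160 (edgeR).

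Trem1 had 3, 11, 14 and 32 counts in I/R libraries 1 to 4, against 1, 1, 0 and 2 in Sham. The groups did not overlap, but I/R library 1 lay close to Sham and I/R library 4 held 53.33% of the I/R counts. The ratio of depth-scaled counts was 15.4 (interval 5.70 to 58.2), and the log2 fold change was 3.78 ± 0.91 with an adjusted p of 0.0194 (edgeR). Without I/R library 4 the log2 fold change was 3.13 for Trem1 (adjusted p = 0.0732) and 1.67 for Clec4e (adjusted p = 0.0534), and the call of both was lost.

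Sequence upstream of these 3 called genes is shown because the genes rose together. Each line is the 250 bases before the gene's start in RefSeq (GRCm38.p6), read 5′ to 3′ on the gene's strand: chr6:123261857-123262106 for Clec4d (plus), chr6:123289872-123290121 for Clec4e (minus) and chr17:48232489-48232738 for Trem1 (plus). Capitals mark matches, on either strand, to GAGGAA, a core bound by the myeloid factor PU.1, or to TTGCNNAA, a form bound by C/EBP factors.
Clec4d: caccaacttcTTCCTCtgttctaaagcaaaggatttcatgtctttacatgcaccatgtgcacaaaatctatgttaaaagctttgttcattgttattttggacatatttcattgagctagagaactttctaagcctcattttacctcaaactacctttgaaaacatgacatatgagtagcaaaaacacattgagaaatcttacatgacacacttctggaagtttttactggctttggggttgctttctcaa
Clec4e: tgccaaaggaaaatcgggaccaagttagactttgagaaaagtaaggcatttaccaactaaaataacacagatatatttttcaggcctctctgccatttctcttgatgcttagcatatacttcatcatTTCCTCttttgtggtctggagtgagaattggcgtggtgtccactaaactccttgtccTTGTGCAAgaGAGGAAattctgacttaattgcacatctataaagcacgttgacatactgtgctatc
Trem1: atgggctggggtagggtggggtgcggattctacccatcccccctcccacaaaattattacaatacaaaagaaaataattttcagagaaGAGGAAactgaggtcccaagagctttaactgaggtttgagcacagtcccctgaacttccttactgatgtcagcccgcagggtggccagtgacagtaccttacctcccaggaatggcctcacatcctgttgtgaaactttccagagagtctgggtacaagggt
The PU.1 letters occur in all 3 windows, and the C/EBP letters only in that of Clec4e among these 3. Of all 10 members, 8 held the PU.1 letters, which 23.3% of 32851 promoter windows of the same length hold, and 5 held the C/EBP letters (Lcn2, S100a9, Clec4e, Mmp8 and Retnlg), which 9.6% of windows hold. The NF-kB consensus was found in none of the 10 and in 3.9% of all windows. The motifs searched do not overlap one another in these windows, and a match is a description of letters, not of a binding site.

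Both receptor genes for the signals that mobilise neutrophils were expressed in Sham hearts and did not pass the test in I/R. Csf3r (chr4:126024550-126044440, plus strand), the G-CSF receptor, was at 1.87, 3.19, 4.30 and 4.64 CPM in I/R libraries 1 to 4, against 1.22, 1.56, 2.36 and 0.881 CPM in Sham. The groups overlapped, because I/R library 1 lay below Sham library 3. Its log2 fold change was 1.21 ± 0.62 with an adjusted p of 0.275 (edgeR). With only I/R and Sham in the fit it was 1.20, with an adjusted p of 0.0398. Cxcr2 (chr1:74153989-74161246, plus strand), the receptor for ELR-type CXC chemokines, was at 4.21, 4.72, 7.84 and 9.06 CPM in I/R libraries 1 to 4, against 4.43, 5.40, 4.62 and 3.77 CPM in Sham. I/R libraries 1 and 2 lay within the Sham range, and I/R libraries 3 and 4 above it. Its fold change on the log2 scale was 0.50 ± 0.32 with an adjusted p of 0.392 (edgeR).

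The genes for secreted and granule proteins had larger fold changes with wider errors. S100a8 (chr3:90668978-90670035, plus strand) and S100a9 (chr3:90692632-90695721, minus strand) encode the subunits of calprotectin, an abundant cytosolic protein of neutrophils. S100a8 had 7, 3, 5 and 14 counts in I/R libraries 1 to 4, against 0 in each Sham library, and S100a9 had 12, 4, 7 and 14, against 1, 0, 3 and 0 in Sham. The I/R libraries lay above all Sham libraries for both genes, though by few counts in I/R library 2. With Sham set at 3 counts over the group and the I/R counts taken as exact, the depth-scaled ratio for S100a8 was 9.91. The ratio for S100a9 was 9.48 (interval 3.41 to 36.6). Both genes fell short of the filter on low counts. In the fit without that filter the adjusted p was 0.0184 for S100a8 and 0.176 for S100a9, where the log2 fold change was 3.08 ± 1.19 (edgeR).

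Lcn2 (chr2:32384633-32388252, minus strand) encodes neutrophil gelatinase-associated lipocalin, which binds bacterial iron carriers. Its level was 0.879, 0.983, 0.804 and 3.03 CPM in I/R libraries 1 to 4, against 0.724, 0.145, 0.347 and 0.529 CPM in Sham. The groups did not overlap, yet 3 of the 4 I/R libraries lay just above Sham library 1, and I/R library 4 held 54.0% of the I/R counts. It had a log2 fold change of 1.72 ± 0.72 with an adjusted p of 0.171 (edgeR).

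Mmp8 (chr9:7558456-7568485, plus strand) encodes neutrophil collagenase, a protease of the specific granules. It had 31, 13, 34 and 97 counts in I/R libraries 1 to 4, against 0, 3, 3 and 3 in Sham. The groups were far apart in counts, with a depth-scaled ratio of 19.9 (interval 10.3 to 44.3). The log2 fold change of 4.25 ± 1.44 was the highest among the 8 members tested, and the adjusted p was 0.107 (edgeR). With only I/R and Sham in the fit the adjusted p was 0.00330, and with a non-robust spread it was 0.0475. I/R library 4 held 55.43% of the I/R counts.

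Retnlg (chr16:48872621-48874496, plus strand) encodes resistin-like gamma, a secreted protein of mouse neutrophils. It had 4, 5, 11 and 32 counts in I/R libraries 1 to 4, against 2, 0, 2 and 0 in Sham. I/R libraries 1 and 2 were within a few counts of Sham, and I/R library 4 held 61.54% of the I/R counts. The ratio was 13.3 (interval 4.90 to 50.7), and the log2 fold change was 3.56 ± 1.38 with an adjusted p of 0.140 (edgeR).

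**Figure D1:**
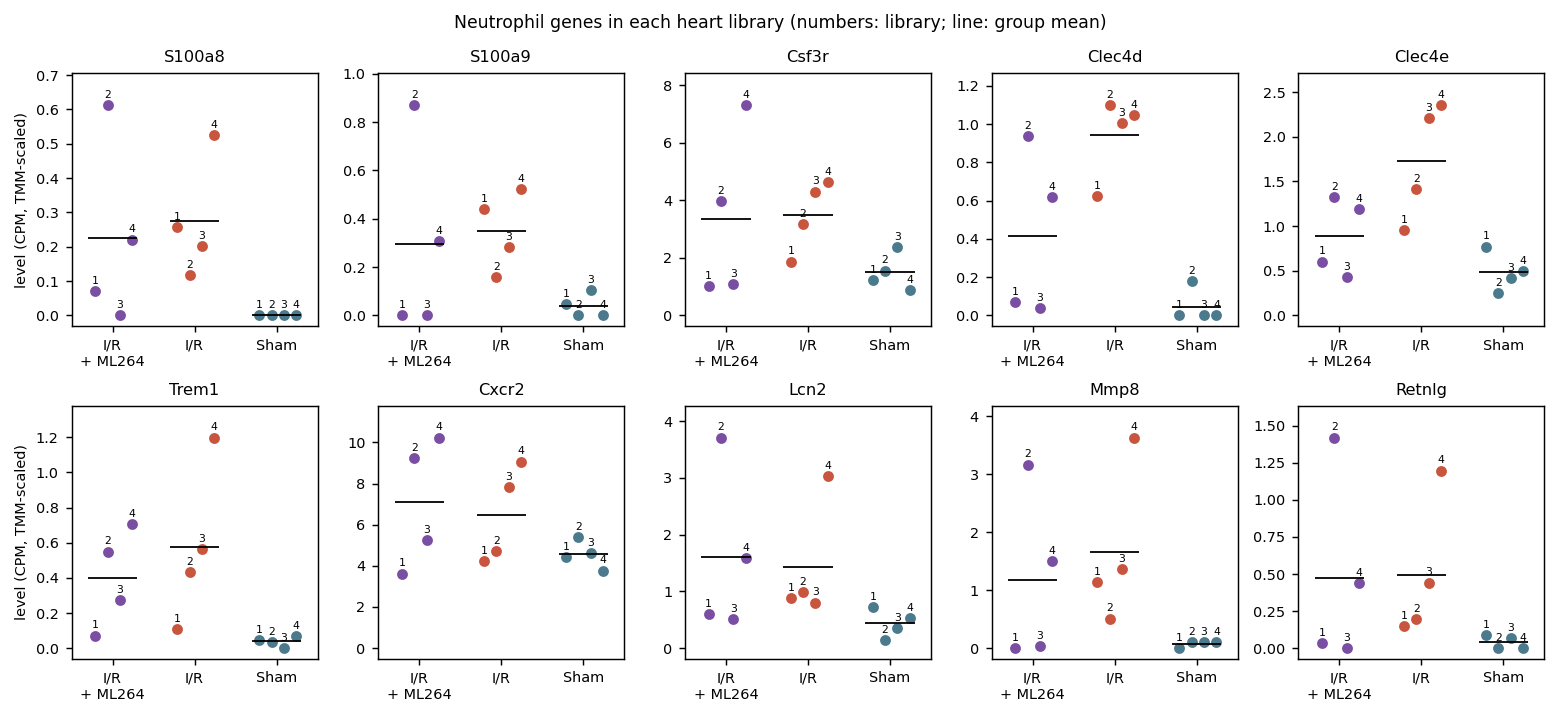
Each panel shows 1 of the 10 genes, with the level in CPM (TMM-scaled) on the vertical axis and the groups I/R + ML264, I/R and Sham along the horizontal axis. Points are libraries, numbered as in the labels, and lines are group means; I/R + ML264 libraries 2 and 4 lie above libraries 1 and 3 in every panel.

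Counted over the list, 3 of the 8 members tested were called higher in I/R than in Sham and none lower, in a comparison where 4.58% of 15952 genes tested were called higher. At an unadjusted p under 0.05 in edgeR there were 6 of 8, against 23.2% of all genes tested. DESeq2 called 5 (Mmp8 and Retnlg besides), against 11.2% of genes, and limma voom 2, against 9.04%. Clec4d, Trem1, Mmp8 and Retnlg, with 0 to 5 counts in each Sham library, entered the test through injured libraries, so the share of the 8 is not read as a result. Without any filter, 8 of the 10 members had I/R libraries that all lay above all Sham libraries, against 5.85% of the 25622 genes with counts. Of these genes 9670 fell short of the filter on low counts, and the members were chosen with earlier results known. This share is therefore not read as a result either. Csf3r and Cxcr2 were the members whose groups overlapped.

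Library differences in Ddx3y and Arntl, both uneven between the groups, bear on these calls. The Y-linked gene Ddx3y ranged between 0.106 and 0.484 CPM in 2 libraries of I/R + ML264 (1 and 2) and 2 of I/R (1 and 4), while every other library, Sham included, had 38.8 to 52.0 CPM. Within the libraries with high Ddx3y (2 of I/R and 4 of Sham), the 3 genes were again called in I/R against Sham, with adjusted p of 0.0484 for Clec4d, 0.0467 for Clec4e and 0.0404 for Trem1 (edgeR). No Sham library had low Ddx3y, so the low libraries gave no such comparison. With the mean level of the Y-linked genes as a covariate, the log2 fold changes were 4.22, 1.85 and 3.88 and the adjusted p 0.0595, 0.0503 and 0.0521, in the same order of genes. With the clock gene Arntl as a covariate, they were 4.16, 1.44 and 2.45, with adjusted p of 0.0737, 0.0944 and 0.167. The log2 CPM of Arntl was 1.74, 3.39, 3.94 and 1.57 in Sham libraries 1 to 4. It was 3.49, 0.33, 1.06 and 0.17 in I/R, and 1.66, 1.36, 0.4 and 0.91 in I/R + ML264. Since both covariates vary in part with the groups, these fits cannot tell them apart from the injury. The calls also rested on single Sham libraries. The adjusted p of Clec4d was 0.0514, 0.0648 and 0.0657 without Sham library 1, 3 or 4, that of Clec4e was 0.0513 without Sham library 2, and that of Trem1 was 0.0532 and 0.0587 without Sham library 2 or 3 (edgeR). Their log2 fold changes in these fits were 3.80 to 3.89 for Clec4d, 1.63 for Clec4e and 3.38 to 3.76 for Trem1.

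**Figure D2:**
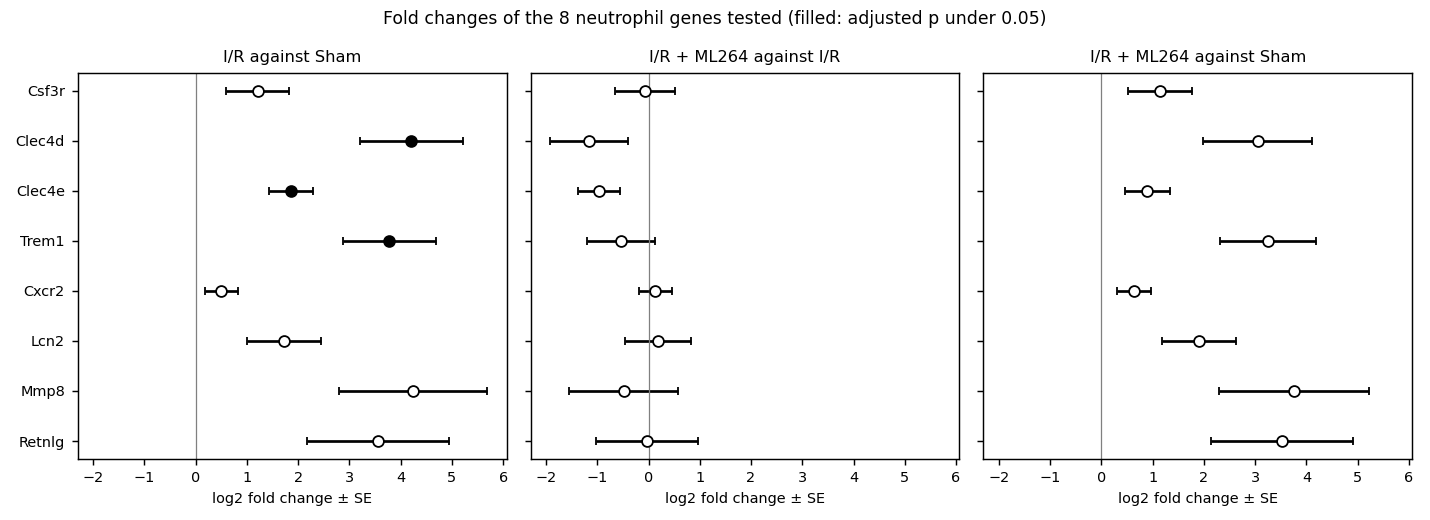
Log2 fold change (horizontal axis, with SE as bars) of the 8 tested genes in I/R against Sham, I/R + ML264 against I/R and I/R + ML264 against Sham. Filled points mark an adjusted p under 0.05: Clec4d, Clec4e and Trem1 in I/R against Sham, and none in the other panels.

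The effect of ML264 after the injury was read from I/R + ML264 against I/R. The 4 treated libraries differed widely among themselves: for most members libraries 1 and 3 were near the Sham libraries, and libraries 2 and 4 were within or above the I/R range. None of the 8 members tested passed in either direction, in a comparison where 0.0502% of all genes tested, 8 genes, were called. At an unadjusted p under 0.05 in edgeR there was 1, Clec4e, where 10.4% of all genes tested passed. DESeq2 and limma voom called none of the members, against 0.999% and 0.0502% of genes. None of the 10 members had groups that did not overlap, against 1.81% of genes with counts for higher and 2.18% for lower in I/R + ML264.

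The sensing receptors had the lowest ratios. Clec4d had 2, 29, 1 and 14 counts in I/R + ML264 libraries 1 to 4, against 17, 28, 25 and 28 in I/R. Libraries 1, 3 and 4 lay below all I/R libraries, and library 2 reached the I/R range. Library 4 fell just short of it, at 0.6173 CPM against 0.6225 CPM in I/R library 1. Clec4d had a log2 fold change of -1.16 ± 0.76 with an adjusted p of 0.631 (edgeR), while the ratio of summed counts was 0.455 (interval 0.314 to 0.653, counting error only). Clec4e was at 0.603, 1.32, 0.428 and 1.19 CPM in I/R + ML264, against 0.952, 1.42, 2.21 and 2.36 CPM in I/R. Its libraries 2 and 4 lay within the I/R range and its libraries 1 and 3 below it. Clec4e had a log2 fold change of -0.96 ± 0.41 with an adjusted p of 0.421 (edgeR), and the ratio of summed counts was 0.517 (interval 0.400 to 0.667). Trem1 had 2, 17, 7 and 16 counts in I/R + ML264, and its log2 fold change from I/R was -0.54 ± 0.67 with an adjusted p of 0.828 (edgeR).

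The receptors of neutrophil mobilisation were also higher in I/R + ML264 libraries 2 and 4 than in libraries 1 and 3. Csf3r was at 1.03, 3.97, 1.09 and 7.32 CPM in I/R + ML264 libraries 1 to 4. Library 4 exceeded every I/R library, and libraries 1 and 3 lay below every I/R library and within the Sham range. Against I/R, the log2 fold change was -0.07 ± 0.59 with an adjusted p of 0.980 (edgeR). Cxcr2 was at 3.62, 9.23, 5.26 and 10.2 CPM in I/R + ML264, with libraries 2 and 4 above every I/R library. Its log2 fold change from I/R was 0.13 ± 0.32 with an adjusted p of 0.921 (edgeR).

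Among the secreted and granule genes the treated libraries were split in the same way. Mmp8 had 0, 98, 1 and 34 counts in I/R + ML264 libraries 1 to 4, so that library 2 alone held 73.68% of the group's counts. Retnlg had 1, 44, 0 and 10 counts, with 80.0% in library 2. S100a8 had 2, 19, 0 and 5 counts and S100a9 had 0, 27, 0 and 7. In all 4 genes the first and the third library were at or close to 0, as in Sham, and library 2 matched or exceeded the highest I/R library in counts. Lcn2 was at 0.603, 3.71, 0.506 and 1.59 CPM in I/R + ML264, again with library 2 highest of all 12. The log2 fold changes from I/R were 0.18 ± 0.65 for Lcn2, -0.49 ± 1.06 for Mmp8 and -0.04 ± 1.00 for Retnlg, with adjusted p of 0.950, 0.910 and 0.994 (edgeR). The ratio of summed counts was 0.870 (interval 0.492 to 1.53) for S100a8 and 0.892 (0.543 to 1.46) for S100a9.

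Summed over the 10 members, the level was 6.10, 25.8, 7.63 and 24.1 CPM in I/R + ML264 libraries 1 to 4, 10.6, 12.8, 19.0 and 27.2 CPM in I/R, and 7.33, 7.68, 8.02 and 5.85 CPM in Sham. The I/R libraries all lay above the Sham libraries, and the I/R + ML264 libraries fell on either side of the lowest I/R library with none between 7.63 and 24.1 CPM. The group means were 15.9 ± 10.5 CPM in I/R + ML264, 17.4 ± 7.44 CPM in I/R and 7.22 ± 0.957 CPM in Sham (SD, n = 4 each). The ratio of I/R + ML264 to I/R was 0.913. Its direction depended on single libraries: it was 0.724 without I/R + ML264 library 2 and 0.756 without I/R + ML264 library 4, but 1.10 without I/R + ML264 library 1, 1.07 without I/R + ML264 library 3 and 1.12 without I/R library 4. In the libraries with high Ddx3y, 2 of each injured group, this ratio was 0.997, and that of I/R to Sham was 2.21 in place of 2.41. Cxcr2 took 33.29% to 70.28% of the sum. Over the 9 members other than Cxcr2, a sum chosen after the values were seen, the level was 2.48, 16.6, 2.38 and 13.9 CPM in I/R + ML264, 6.41, 8.10, 11.2 and 18.2 CPM in I/R, and 2.90, 2.28, 3.40 and 2.08 CPM in Sham. On this sum the ratio of I/R to Sham was 4.11.

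**Figure D3:**
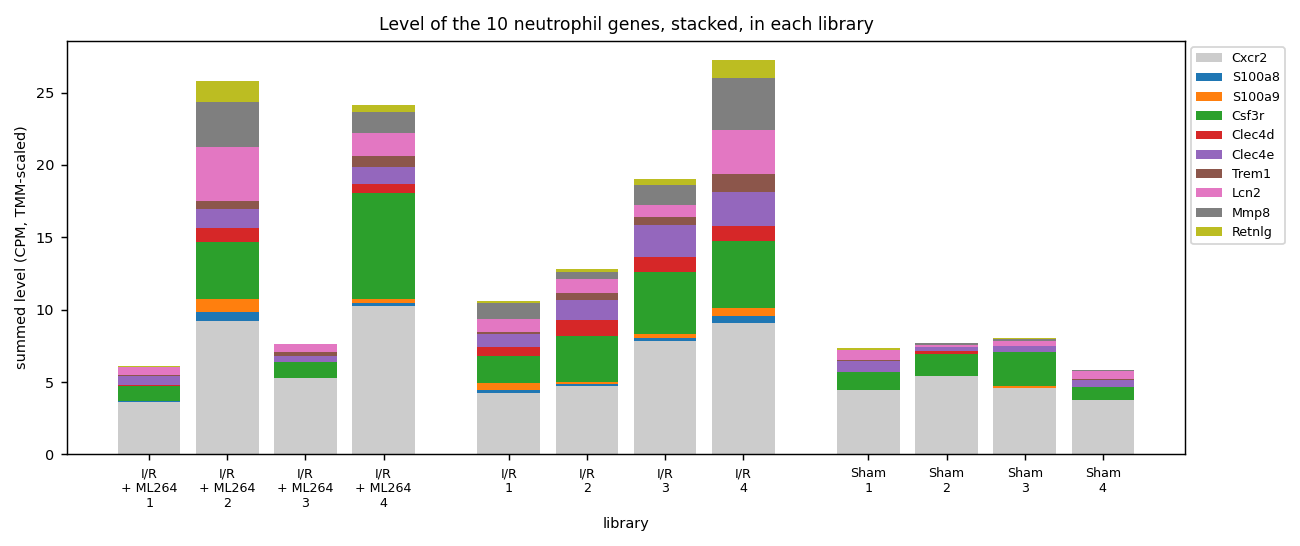
Stacked levels of the 10 genes in CPM (TMM-scaled, vertical axis) for each library, in the order I/R + ML264, I/R and Sham. Light grey at the foot of each bar is Cxcr2, which takes 33.29% to 70.28% of a library's sum; I/R + ML264 libraries 2 and 4 reach 25.8 and 24.1 CPM and libraries 1 and 3 stay at 6.10 and 7.63 CPM.

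The split of the treated libraries went across members rather than resting on one. I/R + ML264 libraries 2 and 4 had the 2 highest values of their group in all 10 members, library 2 first in 7 and library 4 first in 3. The first library had 2 members at 0 counts and the third had 3, libraries 2 and 4 had none, all 4 I/R libraries had none, and the Sham libraries had 3 or 4. Within I/R, library 4 was highest in 9 of the 10 members, and library 2 was highest in Clec4d. The split did not follow Ddx3y, which was low in I/R + ML264 libraries 1 and 2 and high in libraries 3 and 4. Over the 12 libraries each tested member's log2 level correlated with the mean of the other tested members at a Pearson r of 0.822 (Cxcr2) to 0.935 (Retnlg), given as a description over libraries that share their groups.

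Treated injured hearts were also set against Sham, in a comparison that shares the Sham libraries with the first comparison and the treated libraries with the second. None of the 8 members tested passed, in a comparison where 0.288% of genes tested, 46 genes, were called. At an unadjusted p under 0.05 in edgeR there were 5 of 8 (Clec4d, Trem1, Lcn2, Mmp8 and Retnlg), against 13.0% of all genes tested. DESeq2 called 1 (Trem1), against 2.32% of genes, and limma voom none, against 0.257%. Trem1 had 2, 17, 7 and 16 counts in I/R + ML264, against 1, 1, 0 and 2 in Sham. It was the 1 member of 10 whose CPM values did not overlap, against 2.75% of genes with counts, and I/R + ML264 library 1 had as many counts as Sham library 4. The log2 fold change was 3.25 ± 0.94 with an adjusted p of 0.149 (edgeR), and the ratio of summed counts was 10.4 (interval 3.79 to 40.1). The log2 fold changes of the other tested members were 3.05 ± 1.06 for Clec4d, 0.89 ± 0.44 for Clec4e, 1.14 ± 0.62 for Csf3r, 0.63 ± 0.32 for Cxcr2, 1.90 ± 0.71 for Lcn2, 3.76 ± 1.46 for Mmp8 and 3.52 ± 1.38 for Retnlg, with adjusted p of 0.227 to 0.482 (edgeR). For S100a8, with Sham set at 3 counts over the group and the treated counts taken as exact, the depth-scaled ratio was 8.62. Library 2 held 73.08% of its treated counts.

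How the counts fell on transcripts differed between members. All counts of S100a9, Trem1, Cxcr2, Mmp8 and Retnlg were placed on protein-coding transcripts, but only 54.2% for Csf3r, 22.9% for Clec4e, 21.1% for Lcn2 and 15.5% for Clec4d. The protein-coding transcript of Clec4d had estimated counts of 7.88 and 3.58 in I/R libraries 1 and 2, 0 in I/R libraries 3 and 4 and 0 in every Sham library. Most Clec4d counts were instead placed on a retained-intron transcript, with 9.12, 22.39, 11.19 and 14.51 in I/R, and on a transcript annotated for nonsense-mediated decay. Cxcr2 was placed almost wholly on 1 of its 2 transcripts in each library, over 99% on ENSMUST00000106899.3 in 7 libraries and on ENSMUST00000027372.7 in 5, with both kinds in every group. Such placement rests on few reads, and the gene sums used here do not depend on it, whereas the TPM values do. Of the 31-base words of a member's transcripts, 23.1% for Csf3r (AC105061.2), 12.1% for Cxcr2 (Churc1) and 5.5% for Retnlg (Retnla) also occur in other genes. The gene with the most matches is named in brackets, and reads of these members could be divided with other genes. For the other 7 members the share was 0.7% or less.

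Genes that draw neutrophils moved in the same comparison. Of 12 chemoattractants and growth factors listed, 9 were tested and 3 were called higher in I/R than in Sham (Cxcl2, Ccl3 and Cxcl1), none lower. Over all genes tested 4.58% were called higher, and the median log2 fold change of the 9 was 2.76. Ccl3, with 1, 3, 0 and 4 counts in Sham libraries 1 to 4, entered the test through injured libraries. The share and the median of this list are therefore not read as a result. Of the list, 1 gene was called with the Arntl covariate, within the libraries with high Ddx3y, with only the 2 groups fitted, without Sham library 3 and without I/R library 2. Cxcl2, a CXCR2 ligand, was at 5.14, 9.98, 2.34 and 11.8 CPM in I/R + ML264, 7.14, 14.5, 22.5 and 9.88 CPM in I/R and 1.13, 0.0362, 0.0695 and 0.352 CPM in Sham. All injured libraries, treated or not, lay above all Sham libraries. The log2 fold change in I/R against Sham was 5.19 ± 0.85 with an adjusted p of 0.00831 (edgeR). Cxcl1, which binds the same receptor, averaged 5.997 ± 3.59 CPM in I/R + ML264, 9.89 ± 4.28 CPM in I/R and 0.912 ± 1.03 CPM in Sham, with a log2 fold change of 3.50 ± 0.80 in I/R against Sham and an adjusted p of 0.0291 (edgeR). Ccl3 averaged 0.306 ± 0.129, 0.532 ± 0.204 and 0.0737 ± 0.0632 CPM in the same order of groups (adjusted p = 0.0203 in I/R against Sham, edgeR).

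The remaining ligands of the member receptors did not pass. Cxcl3 averaged 1.64 CPM in I/R + ML264, 1.97 CPM in I/R and 1.20 CPM in Sham (adjusted p = 0.173 in I/R against Sham, edgeR), and Cxcl5 averaged 2.60, 2.53 and 2.11 CPM in that order (adjusted p = 0.723). Ppbp, a CXC chemokine stored in platelets, averaged 23.9 ± 44.7 CPM in I/R + ML264, 32.5 ± 52.0 CPM in I/R and 3.28 ± 5.37 CPM in Sham (adjusted p = 0.400 in I/R against Sham). Its I/R + ML264 and I/R values were set by library 4 of each group, at 90.9 and 109.5 CPM. Csf3, which encodes the G-CSF bound by CSF3R, had 0, 10, 0 and 0 counts in I/R + ML264, 7, 0, 0 and 2 in I/R and 1, 0, 0 and 0 in Sham, too few for the test.

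Adhesion molecules of the vessel wall were the list with the most calls. Of 15 rolling and adhesion genes, all tested, 5 were called higher in I/R than in Sham (Sele, Icam1, Esam, Selp and Vcam1). Selplg, the selectin ligand carried by leukocytes, was the 1 called lower, and the median log2 fold change was 0.57. Over all 15952 genes tested, 730 (4.58%) were called higher and 1235 in either direction. With the Arntl covariate the calls fell to 3. Sele, which encodes E-selectin, was at 2.06, 7.94, 1.64 and 3.84 CPM in I/R + ML264, 6.48, 8.57, 14.0 and 21.6 CPM in I/R and 0.498, 0.543, 0.625 and 0.846 CPM in Sham. All injured libraries lay above Sham, and 3 of the 4 treated libraries lay below every I/R library. The log2 fold change of Sele was 4.31 ± 0.62 in I/R against Sham (adjusted p = 0.00409); in I/R + ML264 compared with I/R it was -1.70 ± 0.51, with an adjusted p of 0.297 (edgeR). Icam1 averaged 8.41 ± 3.56 CPM in I/R + ML264, 13.5 ± 2.10 CPM in I/R and 5.45 ± 0.414 CPM in Sham, with a log2 fold change of 1.31 ± 0.23 in I/R against Sham (adjusted p = 0.00527, edgeR). Esam, an adhesion molecule of endothelial junctions, had a log2 fold change of 0.72 ± 0.14 (adjusted p = 0.00739, edgeR).

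Partners of the member receptors and ligands moved in part. Of 15, 14 were tested and 3 were called higher in I/R (Cd14, Stat3 and Socs3), none lower, where 4.58% of all genes tested were called higher. The median log2 fold change over the 14 was 0.28. Cd14, a coreceptor of TLR4, which S100A8/A9 can engage, averaged 2.21 ± 1.60 CPM in I/R + ML264, 3.16 ± 0.787 CPM in I/R and 0.408 ± 0.133 CPM in Sham (log2 fold change 2.93 ± 0.49 in I/R against Sham, adjusted p = 0.00375, edgeR). Stat3, the transcription factor downstream of the G-CSF receptor, had a log2 fold change of 0.87 ± 0.15 (adjusted p = 0.00595), and Socs3, its feedback inhibitor, of 4.62 ± 1.03 (adjusted p = 0.0281, edgeR). Socs3 was at 1.42, 10.8, 1.29 and 4.72 CPM in I/R + ML264 libraries 1 to 4, which is again higher in libraries 2 and 4 than in libraries 1 and 3.

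Neutrophil genes outside the 10 gave fewer calls. Of 12 other granule genes only 4 were tested and 1 was called higher in I/R (Mmp9, which encodes gelatinase B), with a median log2 fold change of 0.32. Over all genes tested, 4.58% were called higher. Mmp9 averaged 0.540 ± 0.283 CPM in I/R + ML264, 0.778 ± 0.499 CPM in I/R and 0.0883 ± 0.105 CPM in Sham (log2 fold change 3.01 ± 0.78, adjusted p = 0.0263, edgeR). With 0, 4, 6 and 0 counts in Sham libraries 1 to 4, Mmp9 entered the test through injured libraries, so the share of 4 is not read as a result. This list had no call under either covariate, within the libraries with high Ddx3y, with only the 2 groups fitted, with a filter of 1 CPM, or without Sham library 1, 2 or 4 or I/R library 3 or 4. Of 16 other surface and signalling genes 10 were tested and none was called in edgeR, with a median of 0.21. DESeq2 called 3 higher, where it called 11.2% of genes in either direction. The median log2 fold change over all 15952 genes tested in I/R against Sham was 0.002. In I/R + ML264 against I/R and against Sham, the main edgeR fit called no gene of these 5 lists. Without I/R + ML264 library 2, edgeR called 2 adhesion genes against I/R, where 85 genes were called in all. Against Sham, DESeq2 called 3 chemoattractant genes and 1 each of the adhesion, surface and signalling, and partner lists, against 2.32% of genes. There edgeR called at most 1 gene per list with a non-robust spread, in libraries with high Ddx3y, or without I/R + ML264 library 1 or 3.

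**Figure D4:**
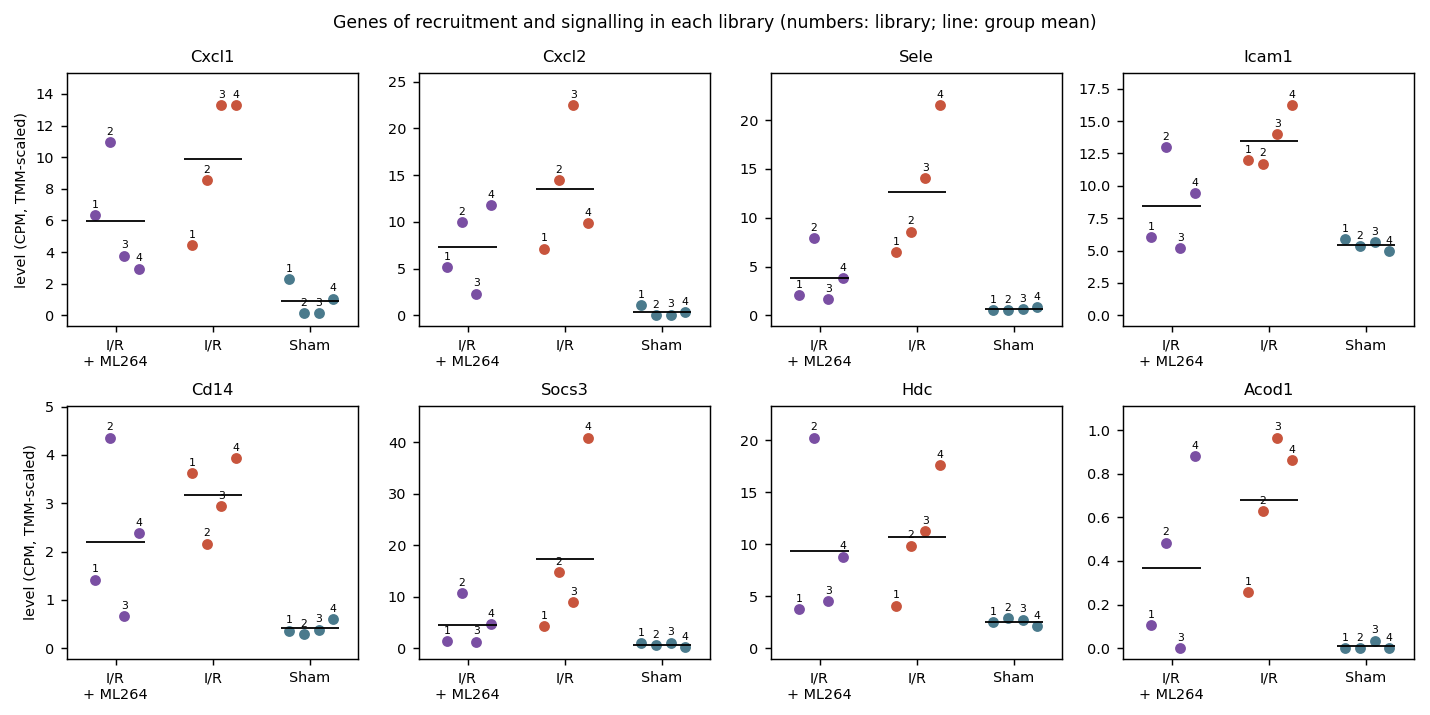
Level in CPM (TMM-scaled, vertical axis) of 8 genes, the recruitment and signalling genes Cxcl1, Cxcl2, Sele, Icam1, Cd14 and Socs3 and 2 genes picked for their likeness to the members, Hdc and Acod1, in I/R + ML264, I/R and Sham. Points are numbered libraries and lines are group means. In every gene shown except Icam1 and Acod1, all injured libraries lie above all Sham libraries.

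The non-member genes whose log2 level was most like the mean centred level of the tested members over the 12 libraries were Rabgef1, Hdc, Hdac4, Icam1, Acod1, Necap1, Sde2 and Stat3, with Pearson r of 0.927 to 0.950. Hdc, which encodes histidine decarboxylase, was at 3.80, 20.3, 4.52 and 8.82 CPM in I/R + ML264, 4.10, 9.87, 11.3 and 17.6 CPM in I/R and 2.49, 2.90, 2.74 and 2.11 CPM in Sham. Libraries 2 and 4 were again the high ones of I/R + ML264. Acod1, which encodes the enzyme that makes itaconate, had a log2 fold change of 5.60 ± 1.19 in I/R against Sham (adjusted p = 0.0105), and Rabgef1 of 0.77 ± 0.21 (adjusted p = 0.0343, edgeR). Acod1 was at 0 in 3 Sham libraries and entered the test through injured libraries. Likeness was measured on the same 12 libraries, with their groups, and carries no test.

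Markers of other blood and immune cells were measured beside the neutrophil genes. In I/R against Sham, 730 of all 15952 genes tested were called higher and 1235 in either direction. Of 14 monocyte and macrophage markers none was called higher in I/R than in Sham and 2 were called lower (Cx3cr1 and Adgre1). Their summed level was 131.6 to 158.8 CPM in I/R + ML264, 134.8 to 165.2 CPM in I/R and 108.2 to 176.8 CPM in Sham, with none of the 14 at 0 throughout a group. Of 8 platelet markers 6 were tested and none was called, and their summed level was 6.14, 9.01, 5.76 and 120.1 CPM in I/R + ML264, 7.62, 31.1, 7.56 and 167.9 CPM in I/R and 22.2, 5.32, 5.18 and 6.48 CPM in Sham. Platelet markers were thus highest in library 4 of both injured groups, while I/R + ML264 library 2, with 25.8 CPM of the 10 neutrophil genes, had 9.01 CPM of platelet markers.

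Of 6 erythroid markers none was called, and their summed level was 13.9, 35.7, 113.1 and 137.0 CPM in I/R + ML264, 20.5, 89.8, 22.1 and 87.5 CPM in I/R and 54.4, 49.7, 68.5 and 17.5 CPM in Sham. I/R + ML264 library 3 combined a high erythroid sum with a neutrophil sum of 7.63 CPM. Markers of T, B and NK cells summed to 13.9 to 21.9 CPM in I/R + ML264, 14.9 to 31.2 CPM in I/R and 12.5 to 17.0 CPM in Sham, with 4 of 9 tested and none called. Most of this sum was Cd3d, which averaged 14.06, 17.72 and 11.6 CPM in the same order of groups. Cd3e, of the same receptor complex, averaged 0.943, 0.636 and 0.523 CPM. Of 7 mast cell and eosinophil markers 2 were tested and none was called. In the heart's own cells, 2 of 6 cardiomyocyte markers were called higher in I/R (Actn2 and Tnnt2), against 4.58% of all genes tested. Of 4 endothelial markers 1 was called lower (Kdr), and of 5 fibroblast markers none was called, where 1235 of 15952 genes were called in either direction. The part of these cells in the member values was not tested.

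**Figure D5:**
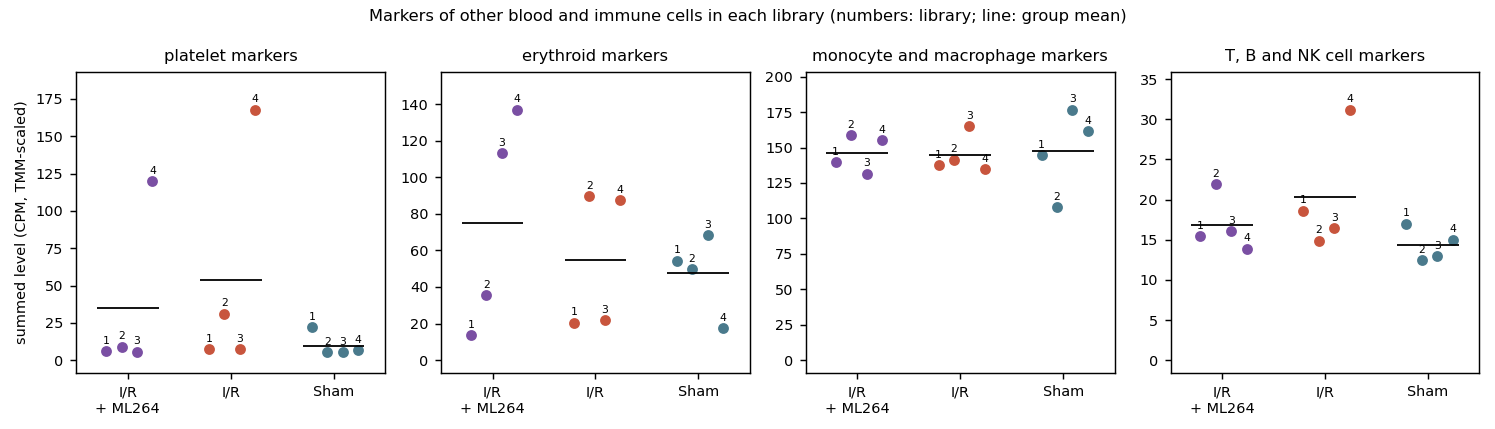
Summed level in CPM (TMM-scaled, vertical axis) of the platelet, erythroid, monocyte and macrophage, and T, B and NK cell markers in I/R + ML264, I/R and Sham. Points are numbered libraries and lines are group means; platelet markers peak at 120.1 CPM in I/R + ML264 library 4 and 167.9 CPM in I/R library 4. The T, B and NK cell sum is mostly Cd3d.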

How the data were processed

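Hearts of 12 libraries were profiled by bulk RNA sequencing. Frozen tissue was extracted with TRIzol, per the labels' protocols, and cDNA was turned into Nextera XT libraries, a kit that does not mark strand. The labels name 2 sequencers for every library and no batch. The authors deposited estimated counts per transcript, not scaled for depth or length. Per the submitters' processing notes, kallisto and FastQC were used with GRCm38 (mm10). For tool versions and annotation, nothing was given in the sources used here.

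Estimated counts were summed per gene symbol over 104952 transcripts and rounded. Before rounding, 45.6% of values were not whole (tolerance 1e-06). Every pair of libraries in a group differed beyond counting noise, with a chi-square per gene of 7.76 to 75.82. GENCODE M21 held 94.7% of transcripts at the deposited version, or 98.6% with versions ignored. It gave coordinates, transcript types and the lengths used for TPM.

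Genes were filtered with filterByExpr (minimum 10 counts), which kept 15952 genes and removed 9670, S100a8 and S100a9 among them. The 12 libraries were fitted in one model by edgeR 4.0.16 (R 4.3.3), with TMM factors and a robust quasi-likelihood F-test. P-values were adjusted by Benjamini-Hochberg over all genes tested, and called means under 0.05. The fit was tested on simulated data. Ratios of summed counts carry exact (Clopper-Pearson) 95% intervals, and a count of 0 allows up to 3 counts. Intervals and floors cover counting error only, because reads carry no molecular identifiers. A floor takes the counts of the other group as exact.

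The members, the lists and the rule for named genes were chosen with earlier results of these data known. Named besides the members were the ligands of CXCR2 and CSF3R, up to 3 called genes per list with the smallest adjusted p, and the 8 genes most alike in level, predicted genes left out. Other genes are named in counts of calls, and Ly6g, Elane, Prtn3, Ctsg and Mpo were named after their values were seen. Alternatives were DESeq2 1.42.0, limma 3.58.1 (voom with library weights), RLE and upper-quartile factors, 2 other filters, a non-robust spread, a replicate block, only the groups compared, mitochondrial genes left out, 2 covariates, only libraries with Ddx3y above 5 CPM, and each library left out in turn. Columns of other samples numbered 0.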

Additional observations from a re-analysis of the deposited data

Results flagged for a closer look

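Of 33 sets of 4 libraries checked among the members and their sums, 3 held a library far from the rest of its group. Chance marks about 1 in 20 such sets, a rate that does not apply to the 2 Sham sets below, whose few and tied counts fix the gap. Clec4d was at 0.1811 CPM in Sham library 2 and at 0 in the other Sham libraries. Lcn2 was at 3.032 CPM in I/R library 4, where the other I/R libraries reached at most 0.983 CPM. Mmp8 was at 0.0 CPM in Sham library 1, and the other Sham libraries had 3 counts each.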

How the results depend on the processing

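In I/R against Sham, 3 members were called in edgeR, 5 with DESeq2 and 1 with a filter of 1 CPM, which left Clec4e and not Clec4d or Trem1 in the test. The count was 4 with no filter (S100a8 besides), a non-robust spread (Mmp8 besides) or only the 2 groups compared (Csf3r, Clec4d, Clec4e and Mmp8). With only the 2 groups compared, Trem1 and Retnlg were not in the test. The count was 0 with the Y-linked or the Arntl covariate, both uneven between the groups, where the cause was not tested. With each library left out in turn the count was 1 to 3, lowest without Sham library 2 or 3 or I/R library 4. For all 8 members the log2 fold change kept its sign in every setting that had the gene in the test. Calls over all genes numbered 1235 in this comparison, 456 with the Y-linked covariate, 636 with the Arntl covariate, 553 in libraries with high Ddx3y and 659 to 1485 with a library left out. The summed level was 2.41 times that of Sham, and 4.11 times without Cxcr2, a sum added after the values were seen. In I/R + ML264 against I/R no setting called a member. Calls over all genes numbered 8 there, 153 with DESeq2, 26 with no filter, 2 with a non-robust spread, 1 with the replicate block, 2 in libraries with high Ddx3y, and 0 (without I/R + ML264 library 1) to 85 (without I/R + ML264 library 2) with a library left out. In this comparison the sign of small log2 fold changes turned: -0.055 for Lcn2 with voom, 0.098 for Retnlg with the Arntl covariate and 0.16 for Csf3r in libraries with high Ddx3y. With a library left out, the log2 fold change spanned -0.77 to 0.23 for Csf3r, -0.094 to 0.35 for Cxcr2, -0.68 to 0.86 for Lcn2, -1.745 to 0.24 for Mmp8, -1.69 to 0.88 for Retnlg and -0.93 to 0.11 for Trem1, and it stayed below 0 for Clec4d and Clec4e. In I/R + ML264 against Sham, DESeq2 called 1 member and no other setting any. Calls over all genes numbered 46 there, 370 with DESeq2, 77 with no filter, 72 with a non-robust spread, 27 with only the 2 groups compared, 19 with the replicate block, 12 with either covariate, 27 in libraries with high Ddx3y and 9 to 101 with a library left out. Replicate numbers are shared between groups, and the labels do not say that they mark a shared source. Same-numbered libraries deviated from their group means together at a correlation of -0.111 to 0.097. A low correlation over all genes tested cannot show that no source is shared. With the number as a block, 3 members were still called in I/R against Sham, with log2 fold changes of 4.73 for Clec4d, 1.82 for Clec4e and 3.78 for Trem1, and none in the other comparisons. Depth limits S100a8, S100a9, Clec4d, Trem1, Mmp8 and Retnlg, whose Sham libraries held 0 to 5 counts each, so a fall below Sham could not be seen.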
